A study of Mus musculus with 2 samples.

Results

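The genes of the GDNF family of growth factors and their receptors were followed in the adrenal glands of newborn mice. The family was taken as 9 genes of 43346 Ensembl genes measured, found by symbol and Ensembl identifier: the ligand genes Gdnf, Nrtn, Artn and Pspn, the co-receptor genes Gfra1, Gfra2, Gfra3 and Gfra4, and the receptor gene Ret. Membership goes by gene name and uses no measured value, but the family was picked for description with earlier results of these data known. Total RNA was sequenced from mice of strain B6NCrl at postnatal day 0, with 1 library per pup, pup 2 and pup 1, each from 2 adrenals and 10 ng of RNA. The labels name no genotype change and no treatment, give both pups the pregnant animal number 1, and say that sex was not collected. Both pups form 1 group without a contrast, so differences between them were not tested and are given as sizes only.

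The ligands of this family are small secreted proteins that fold around a cystine knot. Each binds a preferred GPI-anchored co-receptor (GDNF binds GFRA1, neurturin GFRA2, artemin GFRA3 and persephin GFRA4), and the pair then brings together and activates RET, a receptor tyrosine kinase. RET signalling is known for the growth of the ureteric bud of the kidney, for the enteric nervous system, and for the sympathetic neurons and chromaffin cells that share an origin in the neural crest. In the adrenal, these neural crest derivatives lie in the medulla, inside the steroid-making cortex.

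Ensembl genes took 40799446 estimated counts in the pup 2 library, against 41504306 for pup 1. Cortex genes marked both as adrenal, with all 9 steroidogenic markers at TPM 1 or more in both pups. Genes of neighbouring organs differed between them. Markers of the stomach and oesophagus summed to 6.09 TPM in pup 2, against 147 TPM in pup 1, and the kidney gene Lhx1 had 318 counts in pup 2 and 6 in pup 1. TPM scales reads by transcript length and by the total of the library, so levels can be compared between genes. Ratios are given as log2 of pup 2 over pup 1 from counts scaled by TMM, which sets the bulk of genes at 0, so a positive value means higher in pup 2. Their 95% intervals cover counting error only.

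Several members have transcripts that differ in named pieces, and the reads divided among them unequally, so those pieces are shown first. Sequences are from GENCODE M21 on mm10, 5′ to 3′ along the transcript. Ret has 2 annotated transcripts, which share 3190 coding bases and then part. Ret-202 reads on in the same exon for 29 coding bases (chr6:118155256-118155287 with its stop codon, minus strand), and Ret-201 splices to a further exon for 155 (chr6:118153853-118154010). The tails are 9 full codons in Ret-202 and 51 in Ret-201, which are the receptor forms known as RET9 and RET51. The last 30 shared bases are in lower case, each form's own bases are in capitals, and its stop codon is again in lower case.
Ret-202: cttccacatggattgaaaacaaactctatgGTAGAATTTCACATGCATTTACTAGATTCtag
Ret-201: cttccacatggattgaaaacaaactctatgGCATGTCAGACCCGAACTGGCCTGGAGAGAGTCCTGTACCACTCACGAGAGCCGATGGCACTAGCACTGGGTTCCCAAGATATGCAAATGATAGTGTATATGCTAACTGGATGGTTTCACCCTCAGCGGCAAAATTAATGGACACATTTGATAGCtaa

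Gfra1 has a coding exon of 15 bases (chr19:58392573-58392587, minus strand) that Gfra1-201 holds and Gfra1-203 skips. It is in capitals between the 30 bases on either side.
Gfra1-201: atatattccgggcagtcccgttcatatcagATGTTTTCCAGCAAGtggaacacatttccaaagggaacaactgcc
Gfra1-203: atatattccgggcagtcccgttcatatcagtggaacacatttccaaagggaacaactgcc

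Gfra4 has an intron of 53 bases (chr2:131041342-131041394, minus strand) that the coding transcript Gfra4-206 splices out. Gfra4-207 and Gfra4-208, both annotated as retained intron transcripts without a coding frame, keep it. It is in capitals, and it begins with GT and ends with AG, the usual ends of an intron.
Gfra4-208: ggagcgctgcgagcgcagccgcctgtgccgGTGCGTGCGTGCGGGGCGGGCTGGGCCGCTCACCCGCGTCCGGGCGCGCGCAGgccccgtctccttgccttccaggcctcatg
Gfra4-206: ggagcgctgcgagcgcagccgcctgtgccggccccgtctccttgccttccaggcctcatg

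Of the 9 genes, 7 reached TPM 1 in both pups, where 60.5% of protein-coding genes and 32.9% of all Ensembl genes did. Gdnf reached it only in pup 2, and Artn in neither. By mean TPM the order ran Gfra3, Nrtn, Gfra2, Gfra4, Gfra1, Pspn, Ret, Gdnf and Artn. From Gfra3 down to Ret, the 2 pups' values overlapped between every pair of neighbours, so no single step there is wider than the spread between pups. Some genes further apart in the order were separated. Gfra3 and Nrtn, at 10.64 TPM or more in each pup, stood above Gfra4, Gfra1, Pspn and Ret, at 6.92 TPM or less. Within each pup taken alone, Gfra4 stood above Gfra1 and Pspn above Ret by TPM, while the other steps down to Ret held in 1 pup. In pup 2, Gfra4 and Gfra1 were almost level at 6.92 and 6.90 TPM. Their order there reversed by the quantifier's posterior mean TPM, at 7.29 for Gfra4 and 7.66 for Gfra1. By TPM, the step from Ret to Gdnf and the step from Gdnf to Artn were each wider than the spread between pups. By posterior mean TPM the step from Gdnf to Artn was not, with Artn at 0.57 in pup 2 and Gdnf at 0.39 in pup 1. All 9 genes had a mean count of at least 10, the minimum for a ratio, and 6 had at least 100.

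**Figure D1:**
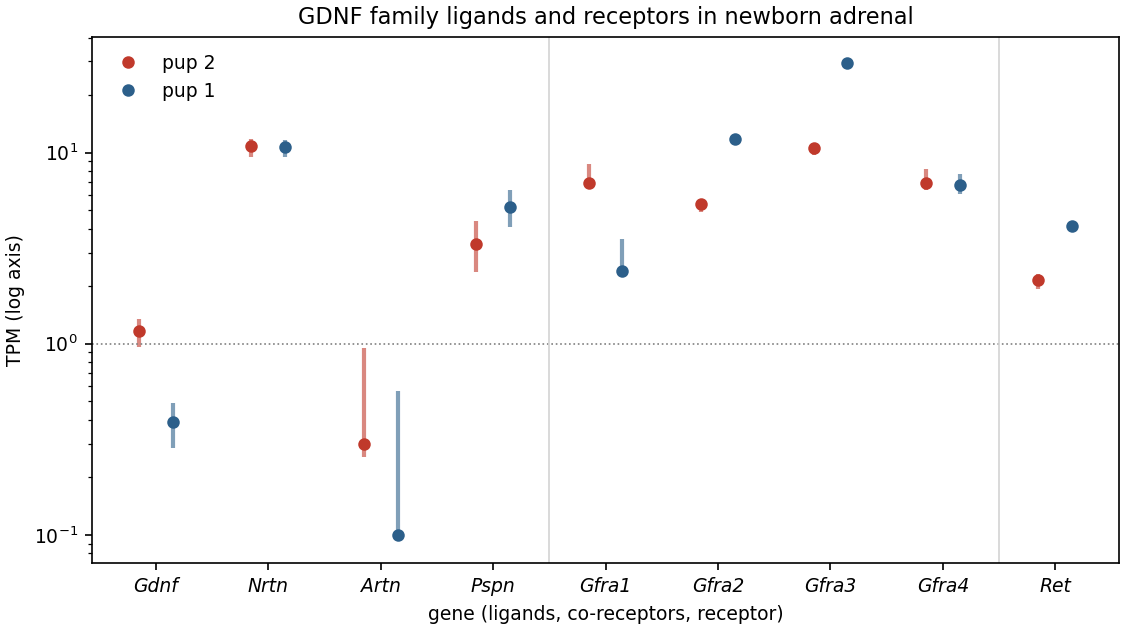
TPM of each gene (log axis) in pup 2 (red) and pup 1 (blue), with vertical bars for the quantifier's interval, which surrounds its posterior mean and not the plotted point; the dotted line marks TPM 1. Gfra3 in pup 1 is highest at 29.53 TPM, and Artn is lowest in both pups.

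Among the ligands, neurturin RNA was the most abundant and the most even between the pups. Nrtn (ENSMUSG00000039481.5, chromosome 17, 56751325 to 56757530, minus strand, mm10) measured 10.86 TPM from 329 counts in pup 2, against 10.68 TPM from 398 counts in pup 1. Its mean was 10.8 ± 0.127 TPM (SD, n = 2), and it held 69.3% of the summed ligand TPM in pup 2 and 65.2% in pup 1. Its log2 ratio was -0.36 by scaled counts (-0.58 to -0.15), and 0.02 by TPM, so the direction differs between the measures. The quantifier's TPM intervals overlapped.

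Persephin RNA came next. Pspn (ENSMUSG00000002664.2, chromosome 17, 56999457 to 57000018, minus strand) had 3.34 TPM from 41 counts in pup 2, against 5.22 TPM from 79 counts in pup 1 on a short transcript of 474 bases. Its log2 ratio of -1.02 (-1.61 to -0.47) lies close to 2-fold and moves to -0.63 with a trend on length and GC content removed. The TPM intervals of the pups overlapped.

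RNA of the founding ligand of the family was scarce, and higher in pup 2. Gdnf (ENSMUSG00000022144.3, chromosome 15, 7810846 to 7837575, plus strand) had 1.16 TPM from 130 counts in pup 2, against 0.39 TPM from 53 counts in pup 1. Its log2 ratio was 1.20 (0.74 to 1.70), and the TPM intervals, 0.959 to 1.35 in pup 2 and 0.286 to 0.491 in pup 1, lay apart. Gdnf thus supplied 7.41% of the ligand TPM in pup 2 and 2.38% in pup 1.

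Artemin RNA was close to the limit of the measurement. Artn (ENSMUSG00000028539.10, chromosome 4, 117926162 to 117929763, minus strand) had 0.30 TPM from 16 counts in pup 2, against 0.10 TPM from 7 counts in pup 1. Its log2 ratio of 1.05 had an interval from -0.25 to 2.63, so a difference was not detectable at this depth. Summed over the 4 ligands, TPM came to 15.7 in pup 2, against 16.4 in pup 1, a mean of 16.0 ± 0.516 (SD, n = 2).

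Among the co-receptors, the artemin receptor gene stood highest by mean and was 3.62-fold lower in pup 2. Gfra3 (ENSMUSG00000024366.7, chromosome 18, 34689898 to 34720387, minus strand) had 10.64 TPM from 660 counts in pup 2, against 29.53 TPM from 2255 counts in pup 1. Its mean was 20.1 ± 13.4 TPM (SD, n = 2). The log2 ratio was -1.86 (-1.99 to -1.73) by scaled counts and -1.47 by TPM. Gfra3 held 35.6% of the summed co-receptor TPM in pup 2 and 58.5% in pup 1.

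Gfra2, the gene for the neurturin co-receptor, was lower in pup 2 as well. Gfra2 (ENSMUSG00000022103.9, chromosome 14, 70890120 to 70979838, plus strand) had 5.41 TPM from 596 counts in pup 2, against 11.76 TPM from 1595 counts in pup 1, with a log2 ratio of -1.50 (-1.64 to -1.37). The 2 pups' TPM intervals lay apart for both Gfra2 and Gfra3.

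Gfra1 differed the other way. Gfra1 (ENSMUSG00000025089.11, chromosome 19, 58235604 to 58455909, minus strand), for the co-receptor of GDNF, had 6.90 TPM from 808 counts in pup 2, against 2.40 TPM from 358 counts in pup 1. Its log2 ratio was 1.09 (0.91 to 1.27), so its share of the co-receptor TPM was 23.1% in pup 2, against 4.75% in pup 1. Gfra1 was thus above Gfra2 in pup 2 and the lowest co-receptor in pup 1. The antisense gene Gm16277 overlaps Gfra1 and had 1.32 TPM in pup 2, against 0.84 TPM in pup 1. No source used here says how strand was handled, so reads of this pair may not be told apart.

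Gfra4, for the persephin co-receptor, lay close in both pups. Gfra4 (ENSMUSG00000027316.11, chromosome 2, 131039632 to 131043088, minus strand) had 6.92 TPM from 285 counts in pup 2, against 6.80 TPM from 311 counts in pup 1, a mean of 6.86 ± 0.0849 TPM (SD, n = 2). Its log2 ratio of -0.21 had an interval from -0.45 to 0.03, and 0.03 was the ratio by TPM. Most of this RNA was assigned to transcripts without a coding frame.

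Ret itself was modest in level and 2.50-fold lower in pup 2. Ret (ENSMUSG00000030110.9, chromosome 6, 118151745 to 118197718, minus strand) had 2.15 TPM from 491 counts in pup 2, against 4.15 TPM from 1158 counts in pup 1, a mean of 3.15 ± 1.41 TPM (SD, n = 2). Its log2 ratio was -1.32 (-1.48 to -1.17) by scaled counts and -0.95 by TPM. The TPM intervals, 1.93 to 2.32 in pup 2 and 3.86 to 4.35 in pup 1, lay apart. Summed co-receptor TPM was 29.9 in pup 2, against 50.5 in pup 1, which is 13.9 times Ret in pup 2 and 12.2 times Ret in pup 1. Singly, Gfra2 stood at 2.52 times Ret in pup 2 and 2.83 times in pup 1, whereas Gfra1 stood at 3.21 times Ret in pup 2 and 0.578 times in pup 1.

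**Figure D2:**
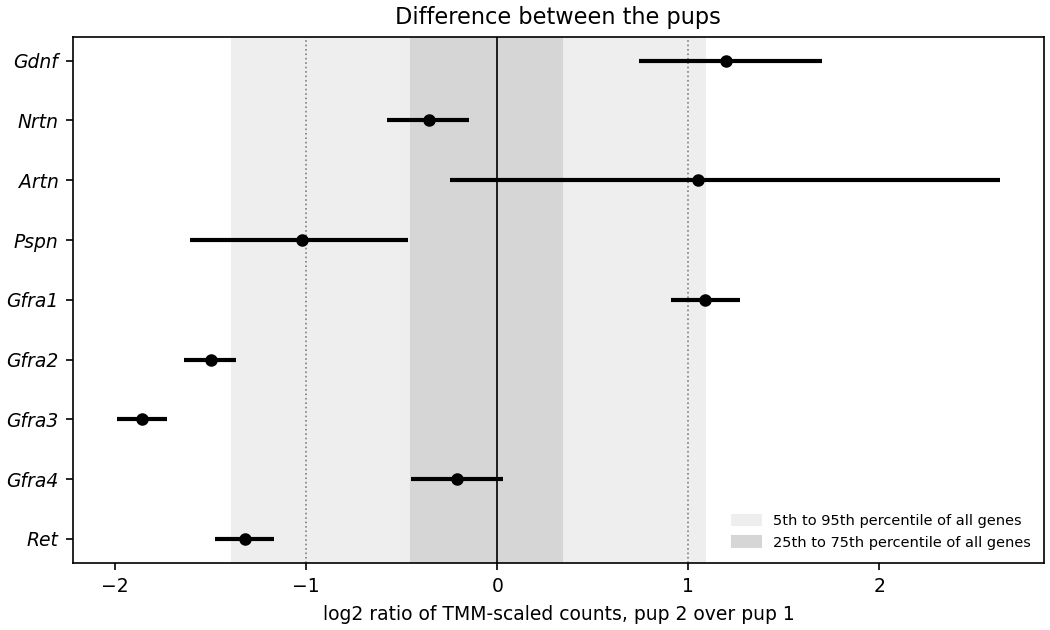
Log2 ratio of TMM-scaled counts, pup 2 over pup 1, for each gene, with 95% exact binomial intervals for counting error; grey bands give the spread of all genes whose mean count reached 10, and dotted lines mark 2-fold. Gfra3, Gfra2, Ret and Pspn lie at or beyond 2-fold on the pup 1 side, and Gdnf, Gfra1 and Artn on the pup 2 side.

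Set beside all genes, members of the family lay over 2-fold apart in both directions. By scaled counts 7 of 9 genes were over 2-fold apart, where 15.8% of 18670 genes were. Over 2-fold higher in pup 2 were 3 of the 9 (background 6.03%), and in pup 1 4 (background 9.77%). The counting intervals of Gfra2, Gfra3 and Ret lay wholly beyond 2-fold, while those of Gdnf, Artn, Pspn and Gfra1 reached inside it. At a mean count of 100 or more, 4 of 6 genes were over 2-fold apart (background 9.13%), of which Gfra1 was higher in pup 2 (background 2.78%) and Gfra2, Gfra3 and Ret were higher in pup 1 (background 6.36%). The median log2 ratio of the 9 was -0.36, against 0.00 for all genes. The TPM intervals of the pups lay apart for 5 of 9 genes, where 61.5% of genes had intervals apart, and for 4 of the 6 with a mean count of 100 or more (background 74.0%), so by that measure the family was not above the background. These directions are relative to the bulk of genes: scaling by the spike-in RNA moves the median of all genes by 2.57 and puts all 9 genes higher in pup 2. The ratio of TPM moves that median by 0.39 and puts 5 of the 9 genes higher in pup 2, against 3 by TMM, and library totals move it by 0.11.

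The level of a co-receptor relative to its preferred ligand was closest between the pups for GDNF and furthest apart for artemin. Gfra1 stood at 5.95 times the TPM of Gdnf in pup 2 and 6.15 times in pup 1, as both genes were higher in pup 2 by a similar factor. Gfra4 stood at 2.07 times Pspn in pup 2 and 1.30 times in pup 1. Gfra2 stood at 0.498 times Nrtn in pup 2 and 1.10 times in pup 1, with the ligand close between the pups and the co-receptor apart. The widest gap was in the artemin pair, where Gfra3 stood at 35.5 times Artn in pup 2 and 295 times in pup 1, with few Artn counts behind both values. The most abundant co-receptor thus went with the least abundant ligand in both pups.

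**Figure D3:**
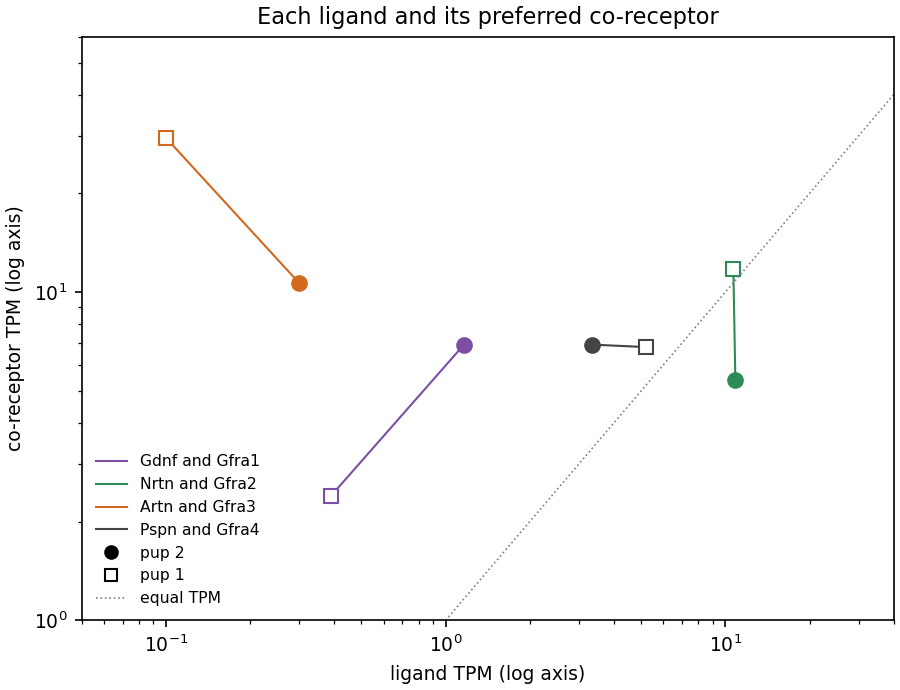
TPM of each ligand (x, log axis) against TPM of its preferred co-receptor (y, log axis), with pup 2 as filled circles, pup 1 as open squares and a line joining the pups; the dotted line marks equal TPM. The line for Gdnf and Gfra1 slopes up with pup 2 above pup 1, that for Nrtn and Gfra2 is almost vertical, and that for Artn and Gfra3 lies far above equality.

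The short-tailed form of Ret was the main one in both pups. Ret-202, whose own coding bases are the 29 printed above, held 78.6% of Ret TPM in pup 2 and 74.6% in pup 1, a mean of 76.6% ± 2.82 (SD, n = 2). It stood at 1.69 TPM (interval 1.33 to 1.95) in pup 2 and 3.10 TPM (2.65 to 3.38) in pup 1. Ret-201, with the long tail, stood at 0.46 TPM (0.164 to 0.802) in pup 2 and 1.05 TPM (0.685 to 1.47) in pup 1. The interval of Ret-202 lay above that of Ret-201 in each pup. The split rests on reads in the parts that differ, untranslated ends included, and the annotation of the files gives Ret-202 a length of 7341 bases and Ret-201 one of 6064. GENCODE M21 gives 4497 bases for Ret-202 and 5456 for Ret-201, so the ends that bear on the split differ between annotations.

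The transcript makeup of Gfra1 differed between the pups more than that of Ret. Gfra1-201, with the 15-base exon, stood at 2.68 TPM (1.32 to 3.32) in pup 2 and 0.46 TPM (0.0758 to 0.776) in pup 1. These intervals lay apart, as did those of the whole gene. Gfra1-203, without it, stood at 2.56 TPM (1.52 to 3.53) in pup 2 and 1.50 TPM (0.974 to 1.78) in pup 1, with overlapping intervals. Of the 5 transcripts that hold both flanking exons, 4 hold the exon, and these took 53.4% of that TPM in pup 2, against 23.3% in pup 1 (mean 38.3% ± 21.2, SD, n = 2). By posterior mean TPM these shares lay closer, at 55.2% in pup 2 and 32.1% in pup 1. Gfra1-204, a short transcript of 841 bases at the 5′ end, held 17.8% of Gfra1 TPM in pup 2 and 18.5% in pup 1.

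Gfra4 RNA was mostly assigned to the retained intron transcripts. Gfra4-208 held 57.9% of Gfra4 TPM in pup 2 and 67.8% in pup 1, and Gfra4-207 held 32.7% in pup 2, against 23.1% in pup 1. Together they took 90.6% in pup 2, against 90.8% in pup 1, so the 6 coding transcripts stood at 0.66 TPM in pup 2, against 0.62 TPM in pup 1. The mean of that share was 90.7% ± 0.197 (SD, n = 2). This split depends on the annotated models. Apart from Gfra4-206, the coding transcripts are annotated without untranslated ends, as in Gfra4-201 with 906 coding bases of 909. Reads from such ends cannot be assigned to them, so how much Gfra4 RNA keeps the intron was not settled. Among the coding transcripts, Gfra4-206 led in pup 2 with 20.7 counts and Gfra4-204 led in pup 1 with 9.05 counts. Gdnf, Nrtn, Pspn, Gfra2 and Gfra3 have 1 transcript each in the annotation of the files, and Artn-202 held 75.7% of Artn TPM in pup 2, against 69.6% in pup 1, on few counts.

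**Figure D4:**
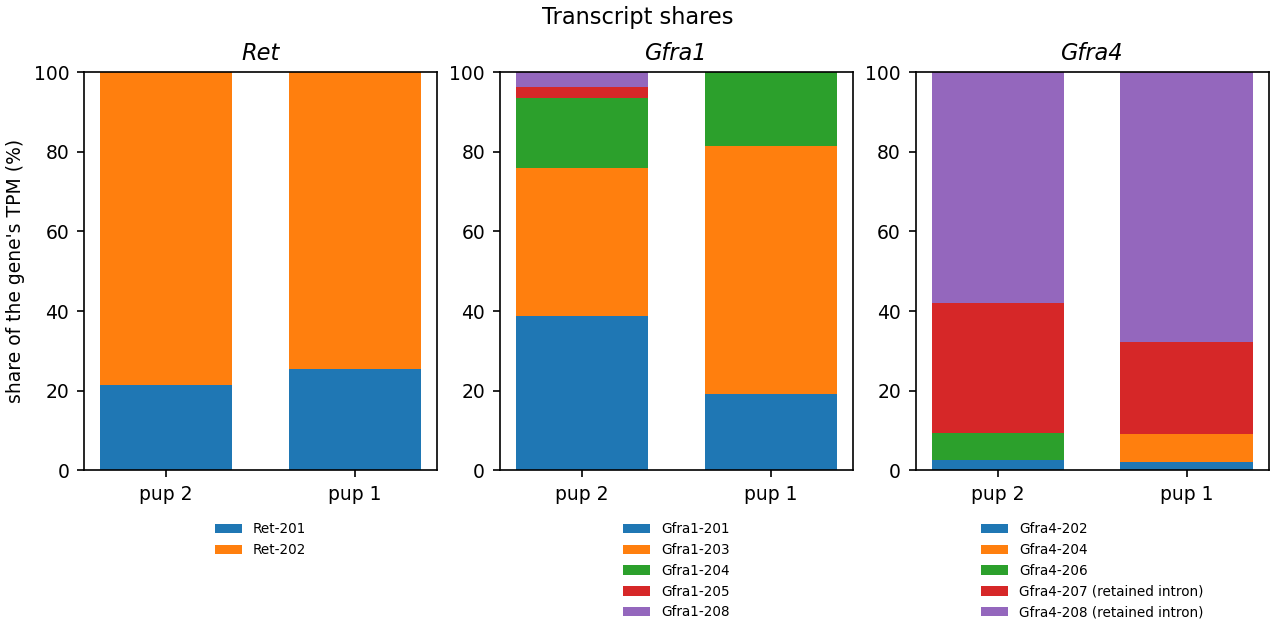
Share of each gene's TPM (%) by transcript in pup 2 and pup 1, for Ret, Gfra1 and Gfra4. Ret-202 fills most of both Ret bars, Gfra1-201 is a larger part of the pup 2 bar than of the pup 1 bar, and the 2 retained intron transcripts fill 90.6% of the pup 2 bar and 90.8% of the pup 1 bar for Gfra4.

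Of 10 genes whose products can bind the same ligands or RET outside the main pairs, 8 reached TPM 1 in both pups, and the 3 highest stood above every member of the family. Gas1, a GPI-anchored protein related to the GFRA co-receptors, had 90.41 TPM in pup 2, against 94.76 TPM in pup 1. Ncam1, an adhesion molecule that can act as an alternative GDNF receptor, had 41.14 TPM in pup 2, against 90.70 TPM in pup 1, a log2 ratio of -1.54. Sdc3, a syndecan whose heparan sulphate binds GDNF, had 48.03 TPM in pup 2, against 38.00 TPM in pup 1. Of 9 genes of this list with a ratio, 1 was over 2-fold higher in pup 2 (Gdf15, 59 counts in pup 2, against 25 in pup 1) and 1 in pup 1 (Ncam1). Of all genes, 6.03% were over 2-fold higher in pup 2 and 9.77% in pup 1. Gfral, the RET co-receptor of GDF15, had 0 counts in both pups, which allows up to 0.0735 CPM in pup 2 and 0.0723 CPM in pup 1.

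Of 27 adaptor and enzyme genes that act below RET, 23 reached TPM 1 in both pups. Their median log2 ratio was -0.01, and 3 were over 2-fold apart, where 15.8% of all genes were. The adaptor genes led the list, with Grb10 at 93.15 TPM in pup 2, against 62.81 TPM in pup 1. Shc1 had 64.75 TPM in pup 2, against 65.62 TPM in pup 1, and Grb2 had 65.97 TPM in pup 2, against 48.81 TPM in pup 1. Over 2-fold higher in pup 2 was Grb7, with a log2 ratio of 1.20. Over 2-fold higher in pup 1 were Shc2 (-1.40) and Shc3 (-1.98, from 5 counts in pup 2, against 20 in pup 1), which encode SHC adaptors known from neurons.

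Genes that RET signalling induces in the ureteric bud did not share the direction of Ret as a list. Of 11 such genes, 7 were higher in pup 2, against 4 in pup 1, and the median log2 ratio was 0.22, while that of Ret was -1.32. Etv4, an ETS transcription factor, had 6.40 TPM in pup 2, against 2.00 TPM in pup 1 (log2 ratio 1.51). Myb, a transcription factor, had a log2 ratio of 1.62. The most abundant genes of the list lay closer together, with Mmp14 at 86.44 TPM in pup 2, against 68.21 TPM in pup 1. Dusp6, a phosphatase that acts on ERK, had a log2 ratio of 0.60, and Spry2, a feedback inhibitor of receptor signalling, one of 0.36. Many receptors besides RET induce these feedback genes.

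Several transcription factors of the sympathoadrenal lineage were lower in pup 2, as Ret was. Phox2a, a homeodomain factor of this lineage, had 27.88 TPM in pup 2, against 46.27 TPM in pup 1, a log2 ratio of -1.12. Tfap2b (-1.33) and Isl1 (-1.64) were over 2-fold apart in the same direction. Pax2, which is known to act upstream of Ret in the nephric duct, had 3.46 TPM in pup 2, against 0.22 TPM in pup 1 (log2 ratio 3.36), and Hoxb5 had a log2 ratio of 1.56. Over all 14 genes, 3 were higher in pup 2, against 11 in pup 1, and the median was -0.56. Over 2-fold higher were 2 in pup 2 (background 6.03%) and 4 in pup 1 (background 9.77%). Among the most abundant of them, Gata2 had 35.63 TPM in pup 2, against 47.36 TPM in pup 1.

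Cell type markers were set beside the family because the glands are mixtures. In such bulk libraries, fewer cells of a type and less RNA per cell cannot be told apart. All 11 sympathetic neuron markers were lower in pup 2, 10 of them over 2-fold (background 9.77%). Their median log2 ratio was -2.02, with a range of -2.38 to -0.83. Scaled by spike-in counts, the median was 0.55. The summed TPM of this list was 531 in pup 2, against 1580 in pup 1. Stmn2, which regulates microtubules in growing axons, had 112.64 TPM in pup 2, against 366.46 TPM in pup 1, and Gap43 and Tubb3 had log2 ratios of -1.97 and -2.02. The neurofilament genes Nefl (-2.26) and Nefm (-2.16), Prph (-2.24), Stmn3 (-1.84), Elavl3 (-1.74) and Elavl4 (-1.32) went the same way.

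By scaled counts, Schwann cell and precursor markers were all lower in pup 2 too, with a median of -0.79 over 9 genes. Gfap (-0.09) had 59 counts in each pup, and by TPM Gfap and Cdh19 were higher in pup 2. The list summed to 97.2 TPM in pup 2, against 181 TPM in pup 1. Fabp7 had 54.23 TPM in pup 2, against 124.52 TPM in pup 1, a log2 ratio of -1.58. Chromaffin cell markers were split, with 6 of 11 higher in pup 2, a median of 0.07 and a summed TPM of 4414 in pup 2, against 2187 in pup 1. Of the 11, 4 were over 2-fold higher in pup 2 (background 6.03%) and 1 in pup 1 (background 9.77%). Chga, a granule protein, had 1521.83 TPM in pup 2, against 557.46 TPM in pup 1, and Chgb (1.19), Scg2 (1.13) and Pnmt (1.08), which makes adrenaline, were over 2-fold higher in pup 2. Th, the first enzyme of catecholamine synthesis, had a log2 ratio of 0.53, and the vesicle transporter gene Slc18a2 one of -1.20. The part of any of these cell types in the Ret, Gfra2 and Gfra3 values was not tested.

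Ret and its co-receptors are also expressed in neurons of the gut and of sensory ganglia. By scaled counts, all 7 enteric neuron markers with a ratio were lower in pup 2 (median -0.97), with Ednrb (-0.02) and Nos1 (-0.09) almost level. By TPM, Ednrb was higher in pup 2, at 26.75 against 20.75 in pup 1. The list summed to 352 TPM in pup 2, against 584 TPM in pup 1. Uchl1 took most of that sum, with 254.58 TPM in pup 2, against 465.67 TPM in pup 1, and sympathetic cells express Uchl1 and Tlx2 too. Vip, a peptide of enteric and other neurons, had 0.77 TPM in pup 2, against 1.98 TPM in pup 1, Nos1 had 47 counts in each pup, and Chat had 7 counts in pup 2, against 1 in pup 1. Sensory neuron markers were low, with 2 of 8 at TPM 1 in both pups and a summed TPM of 6.59 in pup 2, against 4.44 in pup 1. The highest of them were Calca (log2 ratio 0.06), Runx1 (0.19) and Tac1 (0.34).

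All 7 stomach and oesophagus markers with a ratio were over 2-fold higher in pup 1 (background 9.77%), with a median of -4.83. Cym had 4.32 TPM in pup 2, against 99.84 TPM in pup 1. Tff1 (-4.76), Gkn2 (-4.83) and Krt4 (-6.22) went the same way, and Gkn1 had 0 counts in pup 2, against 248 in pup 1. Whether gut tissue bears on the Ret values in pup 1 was not tested.

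Most kidney markers were higher in pup 2, as Gdnf and Gfra1 were. In the developing kidney, Gdnf is made by nephron progenitors, and Ret and Gfra1 by the ureteric bud. Of 8 nephron progenitor markers, 5 were over 2-fold higher in pup 2 (background 6.03%), and the median log2 ratio was 2.08. The list summed to 72.0 TPM in pup 2, against 58.7 TPM in pup 1. Six2, the defining progenitor gene, had 3.11 TPM in pup 2, against 0.28 TPM in pup 1, and Cited1 (1.62), Sall1 (2.54), Pax2 (3.36) and Lhx1 (5.53) were higher in pup 2 as well. Eya1 (-0.81) and Osr1 (-0.47), which take most of the sum, were lower in pup 2.

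Ureteric bud and collecting duct markers had a median of 0.93 and a summed TPM of 84.0 in pup 2, against 49.6 in pup 1. Of these 8 markers, 4 were over 2-fold higher in pup 2 (background 6.03%). They were Calb1 (1.75), Aqp2 (1.53), a water channel of the collecting duct, Cdh16 (2.10), a cadherin of kidney tubules, and Wnt9b (1.59), a signal of the ureteric bud. The most abundant genes of the list lay closer together, with Hoxb7 at 0.29, Krt8 at -0.03 and Wnt11 at -0.22. The part of kidney tissue in the Gdnf and Gfra1 values was not tested.

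**Figure D5:**
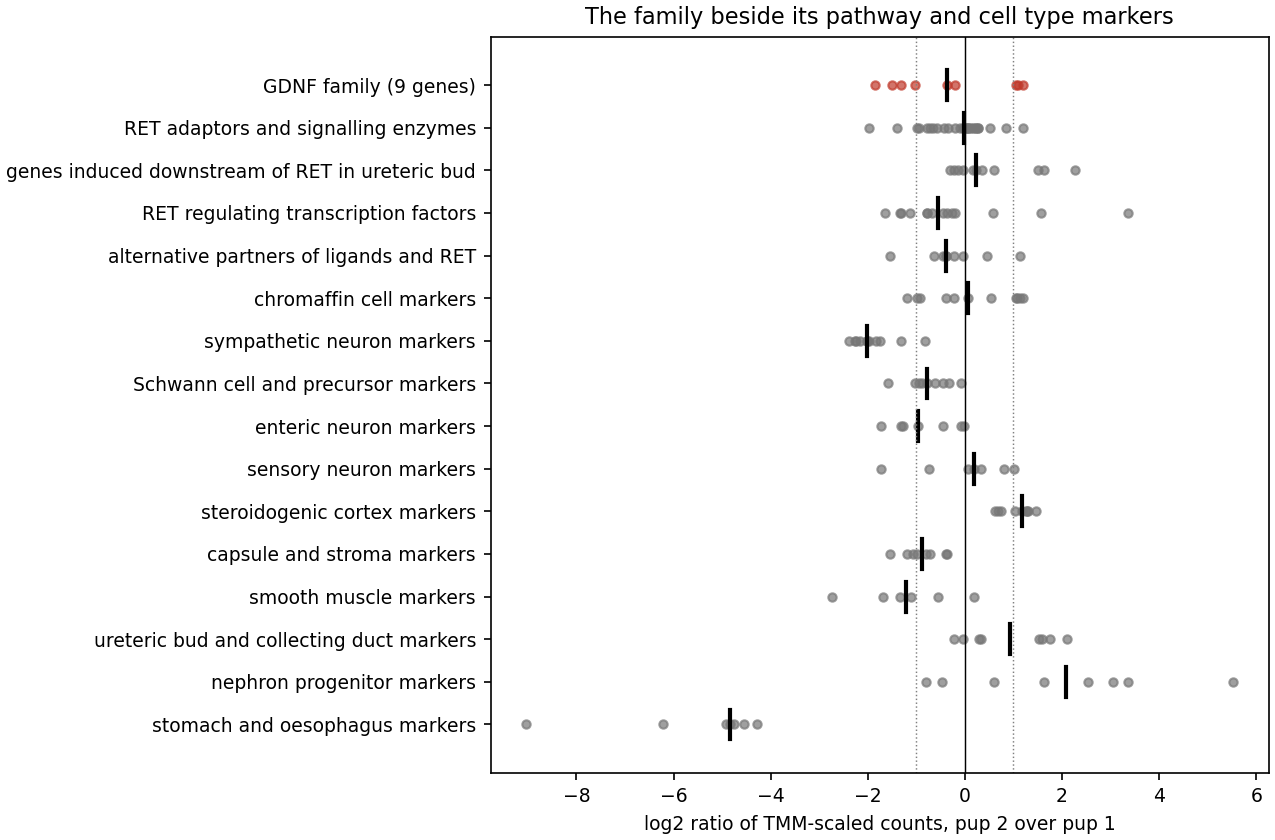
Log2 ratio of TMM-scaled counts, pup 2 over pup 1, for the 9 family genes (red) and for the genes of each list whose mean count reached 10 (grey), with the median of each row as a black bar and dotted lines at 2-fold. Sympathetic neuron markers lie on the pup 1 side with a median of -2.02, kidney progenitor markers on the pup 2 side with a median of 2.08, and the point furthest left, Gkn1, has 0 counts in pup 2, so that its place depends on the 0.5 added to each count.

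In the cortex, all 9 steroidogenic markers were higher in pup 2 (median 1.18), and the list summed to 19630 TPM in pup 2, against 7481 TPM in pup 1. The enzyme genes Hsd3b1 (0.63), Cyp21a1 (1.30), Cyp11a1 (1.27) and Cyp11b1 (1.18) led it. Of the 9 markers, 6 were over 2-fold higher in pup 2 (background 6.03%): Cyp21a1, Cyp11a1, Cyp11b1, Star (1.03), Scarb1 (1.25) and Nr5a1 (1.46). All 8 capsule and stroma markers were lower in pup 2 by scaled counts (median -0.89), while Col3a1 was slightly higher in pup 2 by TPM. Of the 8, 3 were over 2-fold higher in pup 1 (background 9.77%): Rspo3, a capsule signal (-1.55), Tcf21 (-1.20) and Pdgfra (-1.07). The abundant matrix genes Col3a1 (-0.36), Col1a1 (-0.39) and Dcn (-0.71) lay closer together.

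Of 6 smooth muscle markers, 5 were lower in pup 2 (median -1.22, or 1.35 scaled by spike-in counts). By TMM-scaled counts, 4 of the 6 were over 2-fold higher in pup 1 (background 9.77%). Actg2 had 2.60 TPM in pup 2, against 13.22 TPM in pup 1, and Myh11 (-1.33), Cnn1 (-1.68), Tagln (-1.11) and Acta2 (-0.56) went the same way, while Des was at 0.19. The part of smooth muscle in the Gdnf values was not tested.

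The genes nearest in level to the leading members were found among 13127 protein-coding genes by the distance of log2(TPM + 1) over the 2 pups. For Ret these were Thsd7a, Nyap2 and Map1a, at distances of 0.023, 0.03 and 0.053, with Thsd7a at 2.20 TPM in pup 2, against 4.13 TPM in pup 1. For Gfra3 they were Ache, Ngfr and Elavl2, at distances of 0.057, 0.12 and 0.15, with Ache at 10.87 TPM in pup 2, against 30.60 TPM in pup 1. For Nrtn they were Filip1l, Gmds and Cyp1b1, at distances of 0.015 to 0.028. With only 2 pups, such nearness says little beyond a similar level in each library.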

How the data were processed

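Total RNA of 2 newborn adrenal libraries was analysed. The labels list Ambion mirVana for extraction and a SMARTer low-input kit manual. Per the file headers, the authors deposited expected counts, which need not be whole, with posterior mean counts, TPM with an interval (deposited bounds, used as a signal beside TPM), FPKM, and each transcript's percent of its gene. The deposited text names mm10 and GENCODE M4, and no source used here gives the quantifier or strand handling. Library sizes exclude the spike-in rows (0.0025% of counts for pup 2, 0.0138% for pup 1) and the numbered rows (9.59e-05% for pup 2, 2.65e-05% for pup 1). GENCODE M21, matched by Ensembl identifier, gave symbols (42462 of 43346 genes), coordinates and sequences.

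Counts were rounded and scaled by TMM (edgeR 4.0.16 in R 4.3.3) over the 18670 genes whose mean count reached 10, and 0.5 was added before log2. Intervals are exact Clopper-Pearson at 95%. Reads are not independent molecules, so these intervals and the limit of 3 counts for a count of 0 cover counting error only. The software also included python 3.11.15, scipy 1.17.1, numpy 2.4.6 and pandas 2.3.3. No test was run, since each pup is 1 library. Alternatives were DESeq2 1.42.0 size factors, library totals, spike-ins, other filters, another pseudocount and other units. A trend of degree 3 on length and GC content, and the shares of Gfra1 and Gfra4 transcripts, were added after seeing the data. The ratio step was tested on simulated data.

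The members and the 18 lists were chosen with earlier results of these data known. The rule for named genes took all members, the 3 highest genes of each list, list genes over 2-fold apart at a mean count of 100 or more, up to 4 genes of a list at 0 counts, and the 3 genes nearest in level to Ret, Nrtn and Gfra3; some genes it takes are not reported here. Gdf15, Sorl1, Shc3, Rap1gap, Insm1, Vip, Nos1, Chat, Ednrb, Gfap, Cdh19, Cnn1, Wnt9b and the genes overlapping members fall outside it. They were named after their values were seen.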

Additional observations from a re-analysis of the deposited data

How the results depend on the processing

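Scaling by spike-in counts turned the log2 ratio of Ret to 1.25, of Pspn to 1.55, of Gfra2 to 1.06, of Gfra3 to 0.71, of Nrtn to 2.21 and of Gfra4 to 2.36, and the medians of sympathetic neuron and smooth muscle markers to 0.55 and 1.35. It put every list median described here above 0 except that of stomach and oesophagus markers (-2.26). With library totals, DESeq2 size factors, no count filter, pseudocount 2, posterior mean counts and the length and GC trend removed, no member changed sign, and the ratio of TPM changed that of Nrtn and Gfra4. The ratio of TPM gave Ret -0.95. Over all 9 genes, 5 to 8 were over 2-fold apart under the alternatives against 7, and with a mean count of at least 100 it was 4 of the 6 genes left. The count of 8 came from spike-in scaling, which moves the median of all genes by 2.57. No share of all genes was computed for the alternatives behind this range, so it does not set the family against a background. Summed ligands came to 14.3 in FPKM and 17.7 with TPM over nuclear genes. Ret-202 held 79.9% of expected counts, and the Gfra4 retained intron transcripts 86.4% of posterior mean TPM. Leaving out each pup, Ret ranged from 2.15 to 4.15 TPM, summed ligands from 15.7 to 16.4 TPM, summed co-receptors from 29.9 to 50.5 TPM, the Ret-202 share from 74.6% to 78.6%, the Gfra1 exon share from 23.3% to 53.4%, the Gfra4 share from 90.6% to 90.8% and the genes at TPM 1 from 7 to 8. Ratios need both pups. The causes were not tested. No paired analysis was possible because there is 1 group. Depth limits Artn most, and its mean level was 0.435 by posterior mean TPM, against 0.2 by TPM.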

Other observations

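Gdf15, a stress-induced TGF-beta relative whose receptor GFRAL signals through RET in the hindbrain, stood at 1.41 TPM in pup 2, against 0.48 TPM in pup 1, while Gfral had no counts at this depth. The sorting receptor gene Sorl1 had 2.47 TPM in pup 2, against 1.36 TPM in pup 1. Rap1gap, whose product binds RET and restrains Rap1, was among the higher signalling genes with 73.41 TPM in pup 2, against 30.36 TPM in pup 1 (log2 ratio 0.85). Insm1, a zinc finger factor of the sympathoadrenal lineage, had 2.12 TPM in pup 2, against 1.88 TPM in pup 1 (log2 ratio -0.21). The microRNA gene Mir6973b overlaps Gfra4 and had 0 counts in both pups.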
